A study of Mus musculus with 15 samples.

Results

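The 9 genes Pdgfa, Pdgfb, Pdgfra, Pdgfrb, Cspg4, Abcc9, Kcnj8, Cox4i2 and Rgs5 were followed through every library of a study of the embryonic mouse lung. They were chosen by name, as ligands and receptors of the platelet-derived growth factor (PDGF) family and as genes by which pericytes are commonly recognised. All 9 were found among the 23420 genes of the deposited count tables, and all 9 passed the filter on low counts in both the fresh and the cultured lungs.

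The study measured RNA from whole lungs of wild-type CD1 mice, an outbred stock, and asked what transmural pressure (the difference in pressure between the airway lumen and the outside) does to the developing lung. No transgene or agent is named for any group. Lungs were frozen straight from embryos at E12.5, E13.5 or E14.5 (embryonic stages in days of gestation), or were explanted at E12.5 and kept in culture for 48 h at low or at high transmural pressure. Each of these 5 groups has 3 libraries, and every library is a pool of lungs: 6 per pool at E12.5 and at low pressure, 3 per pool in the others. Pool size therefore moved with pressure and with E12.5, and the part of either in a difference cannot be told apart. Whether the 3 pools of a group stem from different litters or runs is not stated, so a p-value here reflects only how these pools scatter, which may be technical.

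PDGF ligands are dimeric growth factors that act on a pair of receptor tyrosine kinases. In the embryonic lung, epithelium is a known source of Pdgfa and mesenchymal fibroblasts carry its receptor Pdgfra, the pair later needed for the myofibroblasts of the alveoli. Endothelial cells make Pdgfb, which draws pericytes carrying Pdgfrb onto the vessel wall. Pericytes are the mural cells of small vessels. Kcnj8 and Abcc9 encode the pore and the regulatory subunit of an ATP-sensitive potassium (K-ATP) channel that is typical of pericytes, and Abcc9 also serves the K-ATP channels of heart and skeletal muscle. Cspg4 encodes a cell-surface chondroitin sulphate proteoglycan of mural and other immature cells, Rgs5 a regulator of G-protein signalling, and Cox4i2 a lung-enriched and hypoxia-responsive isoform of a cytochrome c oxidase subunit.

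On build mm10, in GENCODE release M21, Pdgfa lies at chr5:138976014-138997370 (minus strand), Pdgfra at chr5:75152292-75198215 (plus) and Pdgfb at chr15:79995874-80014977 (minus). Cspg4 lies at chr9:56865033-56899870 (plus), Cox4i2 at chr2:152754173-152765037 (plus) and Rgs5 at chr1:169655501-169695813 (plus). Kcnj8 (chr6:142564837-142571614) and Abcc9 (chr6:142587862-142702315) are neighbours on the minus strand of chromosome 6, with 16247 bases and 0 other gene models between them. Reads were counted per gene with a strand setting that is not given in the sources used here. Exons of Pdgfa overlap an antisense gene (6330403L08Rik) over 813 bases, those of Abcc9 another (5330439B14Rik) over 158 bases, and those of Pdgfra overlap 3 small models. Reads there cannot be told apart without strand. The other 6 members overlap no other exon.

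Because Kcnj8 and Abcc9 are neighbours whose products form 1 channel, the 250 bases before each start are printed, from RefSeq on GRCm38 (the assembly behind mm10). RefSeq windows were matched for 6 of the 9 members and not for Pdgfb, Pdgfrb or Cox4i2. Windows of 300 bases, 250 before and 50 after the start, were searched on both strands for 6 motifs: the TATA box TATAAA, the GC box GGGCGG, the E-box CANNTG, the hypoxia response core ACGTG, and the MEF2 and CArG motifs of muscle genes. Capitals mark the matches in the printed bases, which run 5′ to 3′ on the gene's strand and end at the base before the start.
Kcnj8, chr6:142571615-142571864, minus strand: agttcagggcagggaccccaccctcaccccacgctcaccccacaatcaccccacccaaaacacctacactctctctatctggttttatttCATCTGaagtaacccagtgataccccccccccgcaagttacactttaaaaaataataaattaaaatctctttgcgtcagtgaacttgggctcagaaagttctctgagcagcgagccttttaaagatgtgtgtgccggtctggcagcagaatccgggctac
Abcc9, chr6:142702275-142702524, minus strand: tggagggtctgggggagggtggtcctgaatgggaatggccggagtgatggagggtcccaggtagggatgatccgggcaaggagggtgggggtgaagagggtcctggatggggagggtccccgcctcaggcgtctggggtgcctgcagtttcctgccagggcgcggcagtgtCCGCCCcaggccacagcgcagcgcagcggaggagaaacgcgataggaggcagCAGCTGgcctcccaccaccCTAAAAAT
Kcnj8 held 1 E-box (CATCTG) and none of the other 5 motifs. Abcc9 held 1 GC box (on the opposite strand, so printed as its complement), 1 E-box (CAGCTG) and 1 MEF2 match, CTAAAAATAA. The MEF2 match covers bases -8 to 2 counted from the RefSeq start, so that its last bases lie past the printed run. The GENCODE model of Abcc9 starts further upstream, at chr6:142702315. The end of the printed run, with the E-box and the MEF2 match, therefore lies inside that model. A MEF2 match was present in 3.19% of all 32851 RefSeq windows, an E-box in 72.3% and a GC box in 35.7%. The TATA box, absent from both windows, was in 13.6%, the hypoxia response core in 19.6% and the CArG motif in 1.63%. The Abcc9 bases were 66.8% G or C and held 12 CG pairs, against 49.2% and 6 in Kcnj8. A match is a description of the letters and shows no binding.

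Libraries of fresh lungs held 18837343 to 21955244 counts, those of low pressure 31843739 to 38288861 and those of high pressure 40167255 to 44341263. Low pressure replicate 3 stood apart, with a count for 14637 genes against 16465 to 16729 in the other 14 libraries. Replicate 1 stood apart at every fresh stage: the 80 genes of cytosolic ribosomal proteins took 3.32% to 4.05% of its counts, against 1.66% to 2.09% in the other fresh libraries. In culture that share was 1.76% to 2.02% under low and 2.83% to 3.11% under high pressure. Its part in the results was not tested. The smallest count of any member in any library was 29, for Kcnj8 in E13.5 replicate 1. Among defining markers of mature pericytes, Higd1b had a count of 0 in 13 of 15 libraries and Vtn in 12 of 15. Both belong to a list of 21 other mural cell genes, of which 18 to 20 had a count in each library. The 9 genes are described by their names and not as a cell type. The whole list of 21 other mural cell genes summed to 1330 to 1380 CPM at E12.5, 1470 to 1650 CPM at E14.5, 1520 to 1560 CPM under low and 1310 to 1500 CPM under high pressure.

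Levels between genes are compared as CPM (counts scaled to library size) per kilobase of exon, with scaling within each table. The receptors led in every group. Pdgfra stood at 35.2 CPM per kb at E12.5, 30.7 at E14.5, 67.2 at low and 52.8 at high pressure, and Pdgfrb (chr18:61045150-61085061, plus strand) followed at 26.2, 25.8, 45.1 and 34.6. The libraries of the 2 receptors did not overlap in culture, but did at each fresh stage. At E12.5, Rgs5 (6.03), Pdgfb (4.64) and Pdgfa (4.48) came next with overlapping libraries, then Cox4i2 (2.78), then Kcnj8 (1.09), Cspg4 (0.783) and Abcc9 (0.701), whose neighbours in the order overlapped. At E14.5, Pdgfa (7.25), Pdgfb (6.88), Abcc9 (5.82), Rgs5 (5.74) and Cox4i2 (5.35) overlapped each with the next, above Kcnj8 (2.17) and Cspg4 (0.99). In culture Cox4i2 came next after the receptors, at 32.4 CPM per kb at low pressure, clear of Pdgfa, and 15.8 at high pressure, where its libraries overlapped those of Pdgfa (12.4). Abcc9 was above Cspg4, Rgs5 and Kcnj8 at low pressure (5.01), with overlap, and last at high pressure (2.19), where it overlapped Kcnj8 (2.49).

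**Figure D1:**
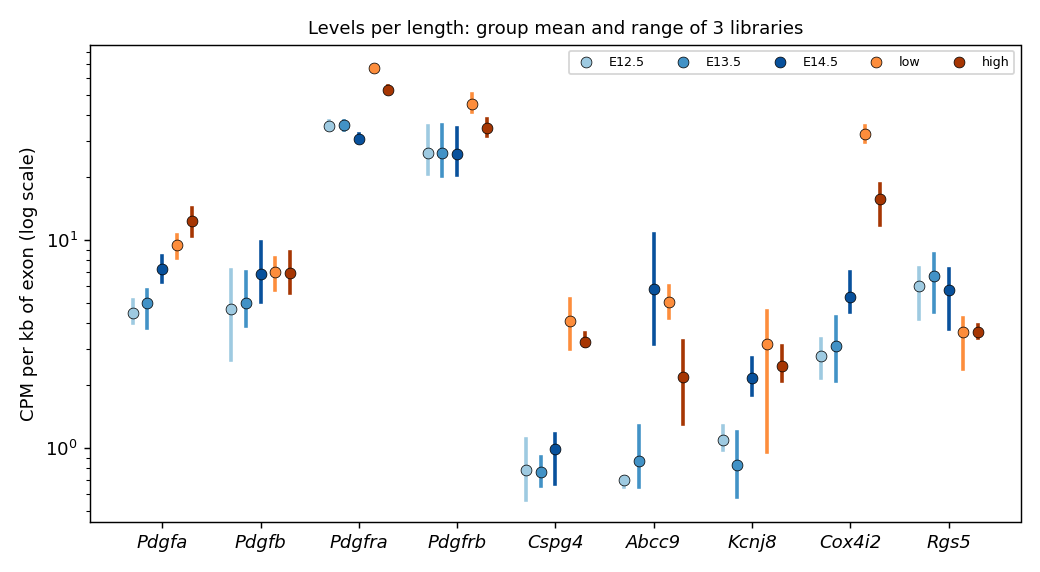
CPM per kb of exon (log scale) of the 9 genes in the 5 groups; points are means and bars the range of 3 libraries. Pdgfra and Pdgfrb are highest in all 5 groups, and Cox4i2 stands at 32.4 at low pressure against 2.78 at E12.5.

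Across the tables, which were scaled separately, the cultured lungs differed from the E12.5 lungs they started from in ways that were not tested. Cox4i2 was 1.7 to 2.65 CPM at E12.5 and 9.32 to 27.8 CPM in the 6 cultured libraries. Cspg4 was 6.72 to 13.1 CPM at E12.5 and 35.6 to 62.3 CPM in culture. Rgs5 went the other way, at 18.9 to 33.5 CPM against 10.9 to 19.3 CPM, with ranges that overlapped. The cultured values of Cox4i2, Cspg4 and Pdgfra lay above every fresh library of any stage. Pdgfra was at 516 to 685 CPM in culture, and its highest fresh library was at 376 CPM. Pdgfa (25.5 to 44.5 CPM in culture) and Abcc9 (10.9 to 50.4 CPM) lay above every library of the starting stage, but not above every fresh one. Pdgfb, Pdgfrb and Kcnj8 overlapped the libraries of the starting stage. The share of all genes that lay apart between cultured and fresh lungs was not computed. These separations are therefore not shown to be particular to the members.

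**Figure D2:**
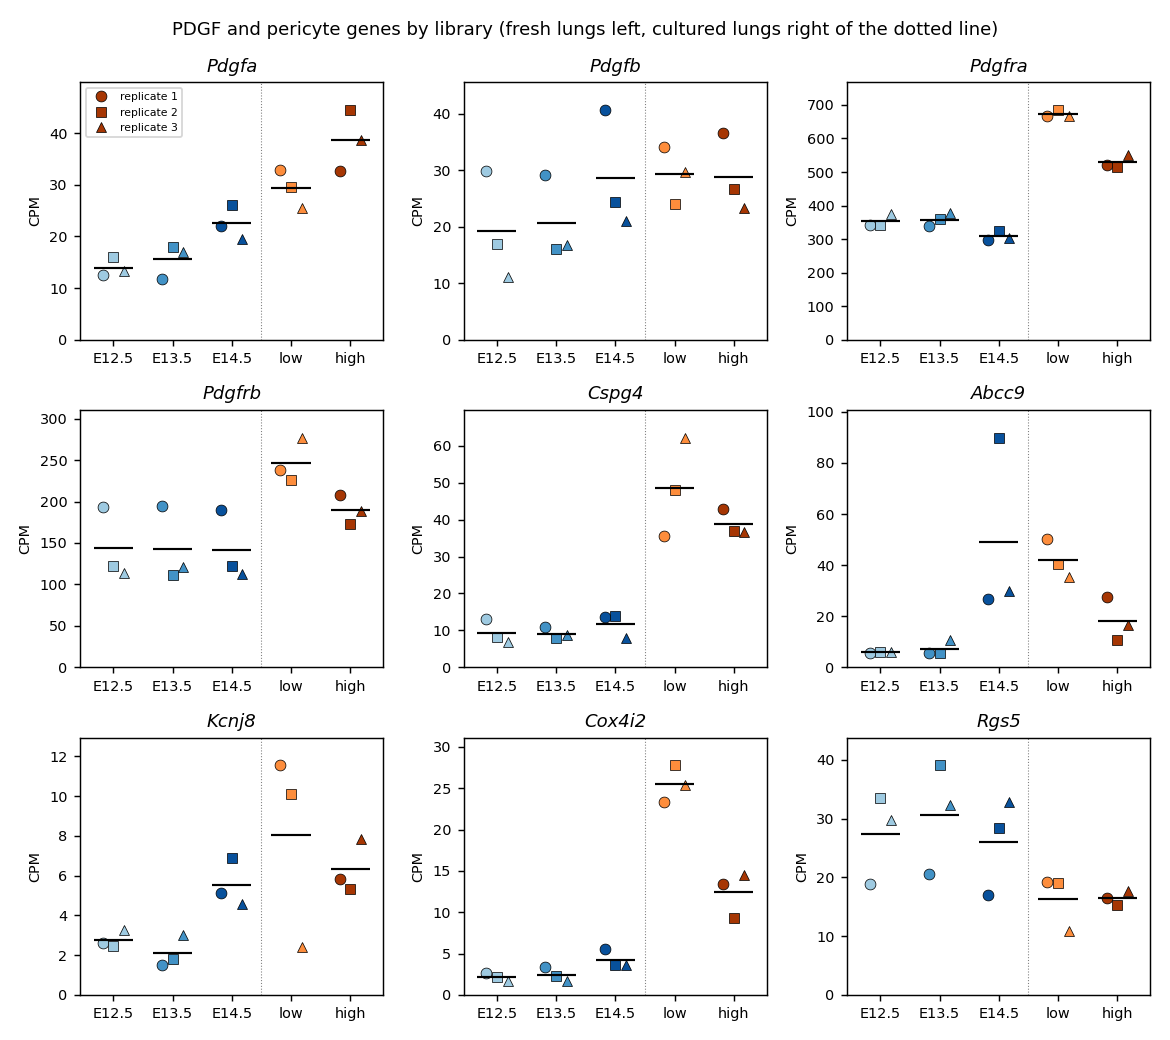
CPM of each gene in each of the 15 libraries, by group; marker shapes are replicates 1 to 3, lines the group means. At high pressure Cox4i2, Abcc9, Pdgfra and Pdgfrb lie below all low pressure libraries, and at E14.5 Abcc9 is highest in replicate 2 (90 CPM).

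At high against low pressure, both PDGF receptors, the K-ATP subunit Abcc9 and Cox4i2 were lower, while neither ligand passed the test. Cox4i2 fell about 2.05-fold and Abcc9 2.29-fold; Pdgfra and Pdgfrb fell 1.27-fold and 1.30-fold. In all, 4 of 9 members fell and 0 rose past an adjusted p of 0.05 (edgeR quasi-likelihood test, Benjamini-Hochberg over 14937 genes), where 26.1% of all genes tested passed, 14% higher and 12.2% lower. In edgeR 3905 genes in all passed. DESeq2 also placed 4 members past the threshold, among 4744 genes in all. The same 4 members were below every low pressure library at high pressure, which held for 21.8% of all genes. The members' median log2 fold change was -0.34, against 0.01 over all genes. In whole lungs, fewer cells of a type and less RNA per cell cannot be told apart.

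Of the ligands, Pdgfa was at 32.9, 29.6 and 25.5 CPM in low pressure replicates 1 to 3 and at 32.7, 44.5 and 38.7 CPM at high pressure. High pressure replicates 2 and 3 lay above all low pressure libraries and replicate 1 did not. The log2 fold change was 0.40 ± 0.15 (SE), with adjusted p = 0.0836 in edgeR. The 12 epithelial markers summed to 946 to 1080 CPM at low and 2020 to 2120 CPM at high pressure, and 11 of them rose. Their part in Pdgfa was not tested. Pdgfb was at 34.0, 24.1 and 29.8 CPM at low and 36.5, 26.6 and 23.2 CPM at high pressure. The groups overlapped throughout, and the 95% interval of the log2 fold change ran from -0.47 to 0.42. The 15 endothelial markers summed to 318 to 553 CPM at low and 199 to 393 CPM at high pressure. Of these, 3 fell (Erg, Flt1 and Cdh5) and 0 rose.

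Of the receptors, Pdgfra was at 666, 685 and 668 CPM at low and 521, 516 and 549 CPM at high pressure. The low pressure libraries lay close together and well clear of the high ones. The log2 fold change was -0.35 ± 0.08 (SE), with adjusted p = 0.0159 in edgeR. Pdgfra lost its call when counts were corrected for GC content and transcript length (log2 fold change -0.18, adjusted p = 0.136). It lost it too when low pressure replicate 2 or high pressure replicate 1 or 2 was left out (adjusted p 0.062 to 0.0721 in edgeR), and with all 15 libraries in 1 fit (0.0743). Pdgfrb was at 238, 226 and 277 CPM at low and 208, 172 and 189 CPM at high pressure. The groups did not overlap, with high replicate 1 and low replicate 2 nearest to each other. The log2 fold change was -0.38 ± 0.11 (SE) and the adjusted p 0.0366 in edgeR. Without low pressure replicate 1, or high pressure replicate 1, 2 or 3, the edgeR adjusted p was 0.0501 to 0.142, and with all 15 libraries in 1 fit it was 0.357.

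Of the pericyte channel genes, Abcc9 was at 50.4, 40.3 and 35.2 CPM at low and 27.3, 10.9 and 16.7 CPM at high pressure. All high pressure libraries were below all low pressure ones, with a spread among them wider than the gap. The log2 fold change was -1.20 ± 0.30 (SE), with adjusted p = 0.0214 in edgeR. It ranged from -1.31 to -0.93 and missed the threshold (adjusted p 0.0577 to 0.0863) when low pressure replicate 1 or 3 or high pressure replicate 2 or 3 was left out. With all 15 libraries in 1 fit the adjusted p was 0.117. The 14 striated muscle markers, at 29 to 78.8 CPM summed at low and 35.7 to 48.7 CPM at high pressure, were near their E12.5 level in both. Kcnj8, the partner subunit, was at 11.6, 10.1 and 2.43 CPM at low and 5.84, 5.34 and 7.84 CPM at high pressure. That last low pressure pool, in which fewer genes were detected, had 76 counts of Kcnj8 against 372 and 388 in the other pools of its group. With it, the log2 fold change was -0.34 ± 0.48 (SE; adjusted p = 0.636 in edgeR). Without it, Kcnj8 fell by 0.77 on the log2 scale with an adjusted p of 0.00993 in edgeR. In that fit 6257 of 15240 genes tested passed, against 3905 of 14937 with the pool kept. Without low pressure replicate 1 the log2 fold change was 0.01, and without replicate 2 it was -0.14, neither past the threshold.

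Cox4i2 was at 23.3, 27.8 and 25.4 CPM at low and 13.4, 9.32 and 14.54 CPM at high pressure. The lowest low pressure library was well above the highest high pressure one. The log2 fold change was -1.04 ± 0.18 (SE), with adjusted p = 0.00506 in edgeR. Cox4i2 alone among the 4 stayed past the threshold in all 12 alternatives, with log2 fold changes from -1.58 to -0.86 and adjusted p from 4.36e-06 to 0.0317. Cox4i1, the ubiquitous isoform of the same subunit, rose by 0.66 ± 0.10 (log2, SE; adjusted p = 0.00267 in edgeR). The ratio of Cox4i2 to Cox4i1 counts was 0.476, 0.533 and 0.542 at low and 0.161, 0.128 and 0.190 at high pressure. Of 13 hypoxia response genes 8 fell and 0 rose, among them Ndrg1 (-1.57), Bnip3 (-1.38), Hk2 (-1.29) and Pdk1 (-1.13), all log2 fold changes. Summed, those 13 were at 9320 to 10400 CPM at low and 5120 to 6880 CPM at high pressure, and their part in Cox4i2 was not tested.

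For Cspg4, CPM was 35.6, 48.2 and 62.3 at low and 42.8, 36.9 and 36.7 at high pressure. Low pressure replicate 1 lay below all high pressure libraries, and the other low pressure pools above them. The log2 fold change was -0.33 ± 0.19 (SE; adjusted p = 0.238 in edgeR). Rgs5 was at 19.3, 19.0 and 10.9 CPM at low and 16.5, 15.4 and 17.7 CPM at high pressure. Its groups overlapped, with a 95% interval of the log2 fold change from -0.49 to 0.51.

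**Figure D3:**
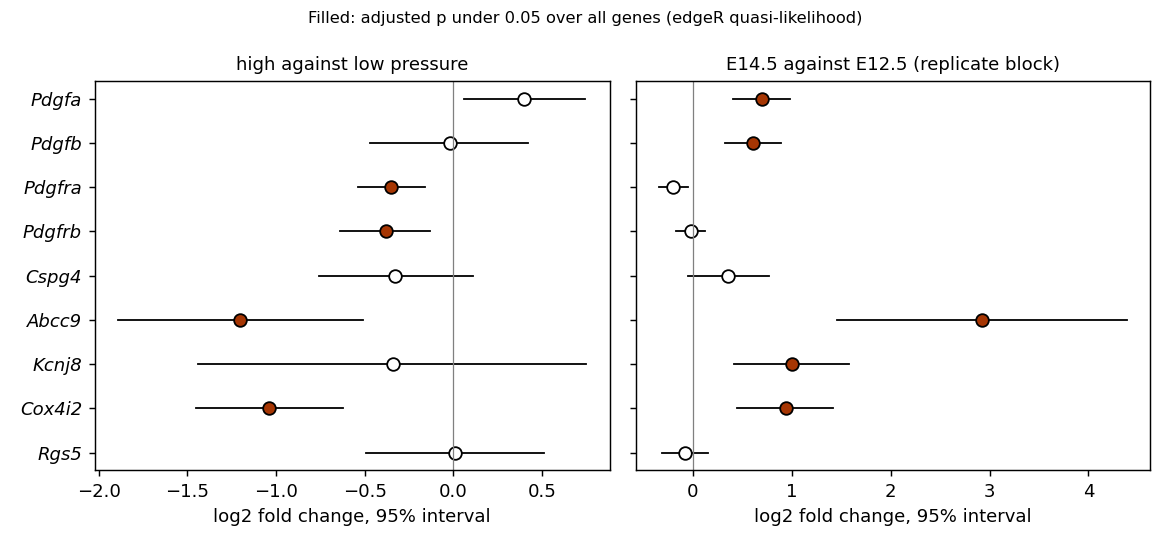
Log2 fold changes with 95% intervals of the 9 genes, high against low pressure (left) and E14.5 against E12.5 with the replicate number as a block (right); filled points passed an adjusted p of 0.05. Abcc9 and Cox4i2 are filled in both, below 0 with pressure and above 0 with stage.

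Of 20 other genes of the PDGF pathway, 5 rose and 3 fell at high pressure, with a median log2 fold change of -0.07. Those that rose were Pdgfrl, a receptor-like protein (2.22 ± 0.19, SE), Sphk1, a sphingosine kinase (2.42 ± 0.36), Furin, a convertase that processes PDGF precursors (0.71 ± 0.10), Src (0.54) and Pik3r1 (0.38). Those that fell were Plat, a protease that can activate the ligand of Pdgfc (-0.85 ± 0.15), Rasa1, a Ras GTPase activator that binds Pdgfrb (-0.53 ± 0.08) and the adaptor Shc1 (-0.32). Pdgfc, another ligand of Pdgfra, was at -0.42 ± 0.14 (adjusted p = 0.0551 in edgeR), and Pdgfd at 0.08 ± 0.32. Of 21 other mural cell genes, 19 could be tested. The transcription factor Tbx18 (-1.47 ± 0.22, SE) and the cation channel Trpc6 (-1.19 ± 0.36) fell, and Mfge8, a secreted glycoprotein, rose (0.56 ± 0.09). The median was -0.29, and the other 16 did not pass, among them Notch3 (-0.29, adjusted p = 0.106 in edgeR). Of 10 smooth muscle markers 2 rose and 3 fell, of 12 fibroblast and mesenchyme markers 5 rose and 2 fell, of 7 tested neural crest and glia markers 1 rose, and of 12 tested striated muscle markers 1 fell.

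Over 2 days in the embryo, from E12.5 to E14.5, both ligands, both K-ATP subunits and Cox4i2 rose, while neither receptor, Cspg4 nor Rgs5 passed the test. These calls hold in the fit with the replicate number as a block, which takes account of the shared standing of replicate 1. Abcc9 rose 7.59-fold, Kcnj8 2-fold, Cox4i2 1.91-fold, Pdgfa 1.62-fold and Pdgfb 1.53-fold. In that fit 5 of 9 members rose and 0 fell, where 11% of 14242 genes tested passed, 7.33% higher and 3.63% lower. Without the block, edgeR placed 0 members and 0 genes (0%) past the threshold, with 1328 genes at an unadjusted p under 0.05. DESeq2 without a block placed 457 genes and 1 member, Abcc9, past it. The blocked median of the members was 0.61 on the log2 scale, against 0 over all genes. Libraries of E14.5 lay above all of E12.5 for Pdgfa, Abcc9, Kcnj8 and Cox4i2, which held for 8.76% of all genes.

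Pdgfa was at 12.47, 16.1 and 13.4 CPM at E12.5 in replicates 1 to 3, at 11.8, 18 and 16.9 CPM at E13.5 and at 22.1, 26.1 and 19.5 CPM at E14.5. The first 2 stages overlapped, and every E14.5 library was above both. The blocked log2 fold change from E12.5 was 0.70 ± 0.13 (SE; adjusted p = 0.00809 in edgeR), and 0.69 ± 0.22 without the block (adjusted p = 0.287). Pdgfb was at 29.9, 17 and 11 CPM, then 29.2, 16.1 and 16.8 CPM, then 40.7, 24.3 and 20.9 CPM. Replicate 1 was highest at each stage, and the E12.5 and E14.5 libraries of Pdgfb overlapped. Its blocked log2 fold change was 0.61 ± 0.13 (SE; adjusted p = 0.0136 in edgeR), and 0.57 ± 0.42 without the block (adjusted p = 0.939). Of the 5 that rose, these ligands were the 2 still past the threshold in the blocked fit without all replicate 1 libraries. Pdgfa was at 0.63 (adjusted p = 0.0283) and Pdgfb at 0.70 (adjusted p = 0.0366 in edgeR). That block pairs replicates 2 and 3 by number, for which the data gave no ground. Without block and replicate 1, Pdgfa passed (0.63, adjusted p = 0.0467 in edgeR) and Pdgfb did not (0.69, adjusted p = 0.0553). In the blocked fit with replicate 1 kept, leaving out E12.5 replicate 2 ended the call of Pdgfa (adjusted p = 0.0548 in edgeR). Leaving out E14.5 replicate 3 there ended that of Pdgfb (0.0651). Endothelial markers rose in 8 of 15 in the same blocked fit, with sums of 597 to 948 CPM at E12.5 and 936 to 1330 CPM at E14.5. Of the 12 epithelial markers 0 passed, at 585 to 1070 CPM and 672 to 1310 CPM summed.

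Neither receptor passed the test over the 2 days. Pdgfra was at 343, 341 and 375 CPM at E12.5, 338, 360 and 376 CPM at E13.5 and 296, 325 and 302 CPM at E14.5. The E14.5 libraries were all below the earlier ones, a pattern shared by 5.33% of all genes against E12.5. The blocked log2 fold change was -0.20 ± 0.07 (SE; adjusted p = 0.0853 in edgeR), with an adjusted p of 0.0442 when GC content and length were corrected. Pdgfrb was at 194, 122.7 and 114 CPM, then 195, 112 and 121 CPM, then 190, 122 and 113 CPM. Replicate 1 stood above replicates 2 and 3 at each stage, by more than any stage differed from another within a replicate number. The blocked 95% interval of the log2 fold change ran from -0.17 to 0.13.

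Abcc9 was at 5.44, 6.09 and 6.06 CPM at E12.5, 5.47, 5.58 and 10.7 CPM at E13.5 and 26.6, 90 and 30 CPM at E14.5. All E14.5 libraries stood far above both earlier stages, and replicate 2 stood far above the other E14.5 pools. The blocked log2 fold change was 2.92 ± 0.56 (SE; adjusted p = 0.0422 in edgeR), and 3.06 ± 0.52 without the block (adjusted p = 0.0713). Without E14.5 replicate 2 the blocked value was 2.19 with an adjusted p of 0.00035. The call was lost without E12.5 replicate 1, 2 or 3, without E14.5 replicate 1 and without all replicate 1 libraries (adjusted p 0.087 to 0.187 in edgeR, log2 fold changes 2.63 to 3.23). The 14 striated muscle markers were, like Abcc9, highest at E14.5. Their sum was 60.6, 42.6 and 38.6 CPM at E12.5, 150, 34.9 and 77.4 CPM at E13.5, and 838, 1840 and 444 CPM at E14.5. E14.5 replicate 2 was highest in both. Replicates 1 and 3 of that stage were close in Abcc9 (26.6 and 30 CPM), at muscle sums of 838 and 444 CPM. At E12.5 and at E13.5, replicate 1 had the highest muscle sum and the lowest Abcc9. Those lowest Abcc9 values were close to the next (5.44 against 6.06 CPM and 5.47 against 5.58 CPM), so their order is not read further. In the blocked fit 10 of these 14 rose, with a median log2 fold change of 4.89, and their part in the Abcc9 result was not tested.

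**Figure D4:**
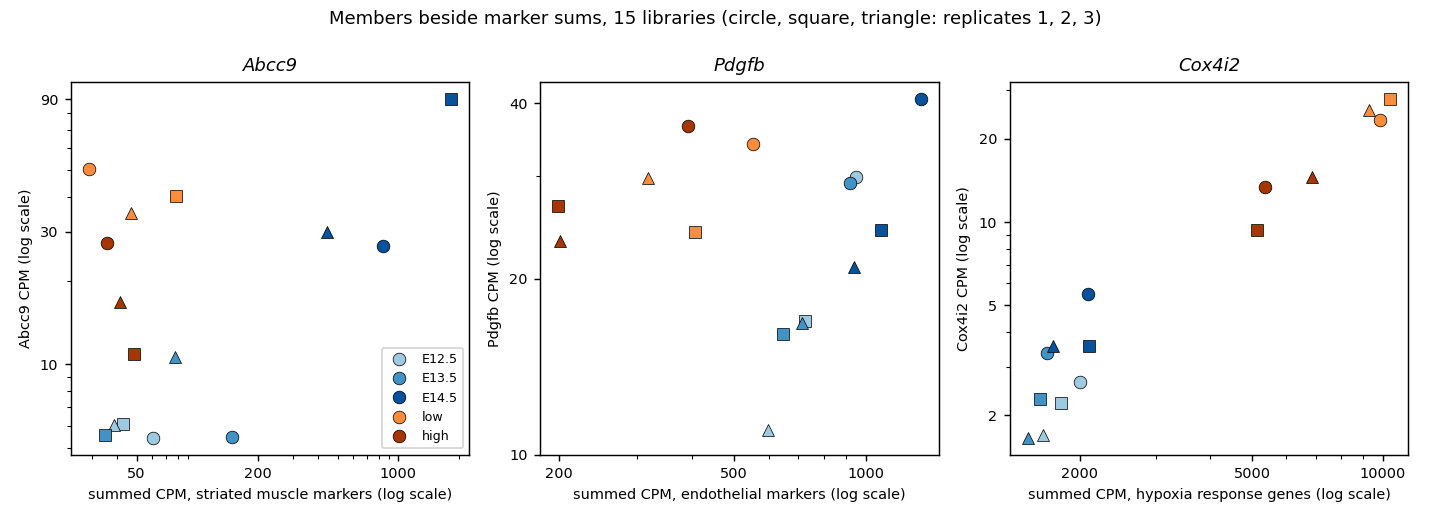
CPM of Abcc9, Pdgfb and Cox4i2 (log scales) against the summed CPM of striated muscle, endothelial and hypoxia response genes in the 15 libraries, coloured by group. Abcc9 is at 90 CPM where the muscle sum is 1840 CPM (E14.5 replicate 2). At low pressure it is at 35.2 to 50.4 CPM, where that sum is 29 to 78.8 CPM.

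Kcnj8 was at 2.60, 2.48 and 3.26 CPM at E12.5, 1.48, 1.82 and 3.03 CPM at E13.5 and 5.10, 6.87 and 4.59 CPM at E14.5. The libraries of the first 2 stages overlapped, and every E14.5 library of Kcnj8 was above both earlier stages. The blocked log2 fold change from E12.5 was 1 ± 0.27 (SE; adjusted p = 0.0339 in edgeR), and 0.99 ± 0.31 without the block (adjusted p = 0.292). It missed the threshold without E12.5 replicate 2 or 3, E14.5 replicate 1 or 2, or all replicate 1 libraries (adjusted p 0.0722 to 0.183). The other K-ATP subunit genes, Kcnj11 (2.20 ± 0.54, SE; adjusted p = 0.0272) and Abcc8 (2.33 ± 0.56; adjusted p = 0.0266), rose too in the blocked edgeR fit, from 0.2 to 0.819 and 0.289 to 0.752 CPM at E12.5 to 1.4 to 2.9 and 1.4 to 5.4 CPM at E14.5.

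Cox4i2 was at 2.65, 2.21 and 1.7 CPM at E12.5, 3.37, 2.29 and 1.66 CPM at E13.5 and 5.50, 3.57 and 3.56 CPM at E14.5. All E14.5 libraries lay above all earlier ones. The blocked log2 fold change from E12.5 was 0.94 ± 0.22 (SE; adjusted p = 0.0222 in edgeR), and 0.94 ± 0.33 without the block (adjusted p = 0.372). It lost its call without E12.5 replicate 1, 2 or 3, E14.5 replicate 1 or 3, or all replicate 1 libraries (adjusted p 0.0579 to 0.108). Cox4i1 was at 0.06 ± 0.10 (adjusted p = 0.738), and of the 13 hypoxia response genes 2 rose (Adm and Pdk1) and 1 fell (Hk2). Cspg4 was at 13.1, 8.17 and 6.72 CPM at E12.5 and 13.51, 14 and 7.99 CPM at E14.5, with E13.5 between 7.87 and 10.8 CPM. Its groups overlapped, and the blocked log2 fold change was 0.36 ± 0.19 (SE; adjusted p = 0.231 in edgeR). Rgs5 was at 18.9, 33.5 and 29.8 CPM, then 20.5, 39.1 and 32.3 CPM, then 17, 28.4 and 32.9 CPM. Replicate 1 was the lowest at every stage, and the blocked 95% interval ran from -0.31 to 0.16.

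Single days were also compared. From E13.5 to E14.5 the blocked fit called 2 members, both higher, where 6.01% of all genes passed (4.15% higher). They were Kcnj8 (1.41 ± 0.27, SE; adjusted p = 0.0143 in edgeR) and Pdgfa (0.55 ± 0.13; adjusted p = 0.0337). Abcc9 (2.61, adjusted p = 0.0732), Cox4i2 (0.80, 0.0555) and Pdgfb (0.46, 0.0596) did not pass. Both calls were lost without E13.5 replicate 1 or 2, E14.5 replicate 1 or 2, or all replicate 1 libraries (adjusted p 0.0567 to 0.237 in edgeR). Without the block edgeR called 0 genes (0%), with 977 at an unadjusted p under 0.05, and DESeq2 called 270 genes and 2 members, Abcc9 (adjusted p = 3.07e-05) and Kcnj8 (0.0122). In the blocked edgeR fit without E14.5 replicate 2, Abcc9 passed (1.93, adjusted p = 0.00118). From E12.5 to E13.5 the blocked fit called 0 members and 1 gene in all (0.00702%), with 553 genes at an unadjusted p under 0.05. Unblocked, edgeR and DESeq2 both called 0, and edgeR had 123 genes at an unadjusted p under 0.05. Members' blocked log2 fold changes over that first day ran from -0.41 (Kcnj8) to 0.31 (Abcc9). The difference between the 2 days was past the threshold for 0 members, in edgeR with the block (3 genes, 0.0211%; 1105 at an unadjusted p under 0.05) and without it (0 genes, 0%; 233), and DESeq2 called 4 genes and 0 members. For Kcnj8 the difference was 1.82 on the log2 scale, with an adjusted p of 0.35 in the blocked edgeR fit.

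Among the 20 other PDGF pathway genes the blocked fit from E12.5 to E14.5 called 1, the ligand Pdgfc, which fell (-0.57 ± 0.14, SE; adjusted p = 0.0303 in edgeR). Their median log2 fold change was 0.03. Of 18 other mural cell genes tested 5 rose: the adhesion protein Mcam (0.83 ± 0.15), the transcription factor Ebf1 (1.29 ± 0.29), the Tek ligand Angpt1 (0.79 ± 0.19), Esam (0.60), which endothelial cells also express and which is on both lists, and the Notch target Heyl (0.51 ± 0.10). Notch3, the receptor of mural cells, fell (-0.32 ± 0.07), and the median was 0.32. Of 10 smooth muscle markers 2 rose (Acta2 and Tagln), of 12 fibroblast and mesenchyme markers 4 rose and 1 fell, and of 8 neural crest and glia markers 0 passed.

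Genes most like each member were taken as the 2 with the highest smaller of 2 Pearson correlations of log2 CPM, over the 6 cultured and over the 9 fresh libraries, among 12229 candidates. The values share library scaling, depth and the standing of replicate 1, and describe these libraries only. Nearest to Abcc9 was Dysf, the muscle membrane repair protein dysferlin (0.98 over cultured, 0.95 over fresh libraries), then Upp1 (0.97 and 0.93). Nearest to Cox4i2 were Tmem45a (0.92 and 0.95) and Hhex (0.96 and 0.92), and to Kcnj8 were Pm20d2 (0.88 and 0.88) and Ppp2r5a (0.87 and 0.90). Pdgfb was nearest to Ctla2a (0.96 and 0.97) and Traf3ip2 (0.92 and 0.87), and Pdgfa to Akap5 (0.91 and 0.91) and Mgst1 (0.95 and 0.90). Pdgfra was nearest to Sema6a (0.97 and 0.95) and Tenm4 (0.99 and 0.95), and Pdgfrb to Rbm5 (0.97 and 0.97) and Tsr1 (0.95 and 0.98). Cspg4 was nearest to Slc35b4 (0.92 and 0.89) and Spats2l (0.88 and 0.88), and Rgs5 to Lyar (0.97 and 0.96) and Spred2 (0.96 and 0.95). No member was among the 2 nearest of another.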

How the data were processed

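RNA of whole lungs was measured in 15 libraries. The submitters' processing notes name cutadapt 1.6, Bowtie 1.1.1, TopHat, HTSeq and build mm10. Annotation and strand setting of the counting: not given in the sources used here. The authors deposited raw counts per gene in 2 tables, of the fresh and of the cultured lungs, which were the input of every test. The other deposited tables were not used.

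Fits used edgeR 4.0.16 (R 4.3.3), separately for both tables (filterByExpr, TMM scaling, robust quasi-likelihood F-test, Benjamini-Hochberg over all genes tested, threshold 0.05). CPM values come from edgeR's cpm function with TMM library sizes. SE is the size of the log2 fold change divided by the square root of F. The fits were tested on simulated counts with a fixed spread and no replicate effect. That test does not bear on how the fits handle the standing of replicate 1. DESeq2 1.42.0 was an alternative. GC and length corrections covered 94% of genes in the cultured and 94.2% in the fresh lungs.

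Same-numbered fresh libraries deviated together from their group means (9 pairs, correlations 0.397 to 0.838, with other numbers at -0.736 to 0.625). Fits with a replicate block therefore stand beside the planned ones there. These correlations set replicate 1 apart and gave no ground to pair replicates 2 and 3 by number. E13.5 replicate 2, for example, correlated at 0.625 with E14.5 replicate 3 and at 0.426 with E14.5 replicate 2. A term for replicate 1 alone is among the alternatives. Replicates of a group were compared in pairs (15 in all), and each pair differed by more than sampling noise. The members, gene lists and tests were chosen with earlier results of these data known. Named are the 9 members, up to 4 genes per list with the smallest p (others where a count of 5 or fewer is spelled out, chosen after their values were seen), and the 2 genes most like each member (mean of at least 1 CPM in both tables, prior count 2, no unnamed models).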

Additional observations from a re-analysis of the deposited data

How the results depend on the processing

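Direction held in every alternative for each member past the threshold. In 24 other series of member values the sign changed in some alternatives (55 of 954 values in all), none of them past the threshold in its base fit. The exception among their alternatives is Kcnj8 at high against low pressure, which passed in 1 (-0.77) and changed sign in another (0.01). For high against low pressure, 4 members became 2 with a replicate block (3137 genes against 3905). The block ended the calls of Pdgfra (adjusted p = 0.0557 in edgeR) and Pdgfrb (0.0523) and gave -0.15 for Kcnj8. It also gave 10 of 15 endothelial markers lower against 3. Same-numbered cultured libraries correlated at -0.012 to 0.046, so the numbers were not taken to pair them. With all 15 libraries in 1 fit, 1 member passed (1121 genes against 3905). Leaving out single libraries gave 1 to 4 members (1894 to 6257 genes, most without low pressure replicate 3).

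In the time series the replicate block moved called genes from 0 to 1 (E13.5 against E12.5), 856 (E14.5 against E13.5), 1561 (E14.5 against E12.5) and 3 (difference of days), and members to 2 (E14.5 against E13.5) and 5 (E14.5 against E12.5). A term for replicate 1 gave 1, 808, 1592 and 2 genes, and 3 and 5 members. DESeq2 gave 270, 457 and 4 genes in the last 3, with 2 and 1 members. For E14.5 against E12.5, no filter gave 9 genes and GC and length offsets 2, and single libraries left out 0 to 3. Leaving out all replicate 1 libraries gave 62 genes for E14.5 against E13.5, 1119 genes and 1 member for E14.5 against E12.5, and 1 gene for the difference of days, where other leave-outs gave 0.

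Within the replicate block (alternatives chosen after seeing the data), leaving out libraries gave 0 to 41 genes for E13.5 against E12.5, 77 to 832 genes and 0 to 3 members for E14.5 against E13.5, 435 to 1977 genes and 1 to 4 members for E14.5 against E12.5, and 0 to 31 genes for the difference of days, which GC and length offsets moved to 5 and DESeq2 size factors to 1. The causes were not tested. Depth bears most on Kcnj8 and Cox4i2, whose lowest counts were 29 and 34.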

Other observations

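Some ratios within a library were computed after the values had been seen and are given as descriptions, with no test. The count ratio of Pdgfb to Pecam1, an endothelial adhesion gene, was 0.789, 0.796 and 1.1 in low pressure replicates 1 to 3 and 1.36, 2.42 and 1.98 at high pressure. It was 0.257 to 0.392 in the 9 fresh libraries. Against Cdh5, the endothelial cadherin, the ratio ran from 0.0715 to 0.15 in fresh lungs, from 0.283 to 0.404 under low and from 0.563 to 1.1 under high pressure. By either endothelial gene, fresh, low and high pressure libraries did not overlap, in that rising order. Pecam1 and Cdh5 are only part of the 15 endothelial markers, and ratios to the others or to their sum were not computed. Pdgfb was at 29.8 CPM beside a marker sum of 318 CPM in low pressure replicate 3. In high pressure replicate 1 it was at 36.5 CPM beside 393 CPM, so the separation is described for these genes only.

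Pdgfa stood the other way beside the epithelial gene Epcam. Their count ratio ran from 0.163 to 0.187 in low and from 0.088 to 0.106 in high pressure libraries. In fresh lungs it ran from 0.0477 to 0.259. It was lowest in replicate 1 at every stage, and the 3 stages overlapped.

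The K-ATP subunits were not counted in a fixed proportion. The count ratio of Abcc9 to Kcnj8 was 1.86 to 2.45 at E12.5, 3.06 to 3.69 at E13.5 and 5.22 to 13.1 at E14.5, with no overlap between stages. At low pressure it was 4.36 and 3.99 in replicates 1 and 2 and far higher in replicate 3 (1101 against 76 counts), and at high pressure 4.68, 2.03 and 2.13. Cox4i2 relative to Cox4i1 was 0.0161 to 0.0694 in fresh lungs, below every cultured library.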
